A study of Mus musculus with 21 samples.

Results

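Ribosome biogenesis genes were followed together with Myc across 4 genotypes of mouse bone marrow c-kit+ cells. The group holds 32 genes of the 54532 in the count table. They were taken by gene name: Myc, 3 subunits of RNA polymerase I (Polr1a, Polr1b, Polr1c), 3 abundant nucleolar proteins (Ncl, Npm1, Mybbp1a), 3 core proteins of box C/D small nucleolar ribonucleoproteins (Fbl, Nop56, Nop58) and 5 genes of the box H/ACA particles (Dkc1, Nhp2, Gar1, Nop10, Nolc1). Another 7 act in small subunit processing (Rrp9, Utp20, Wdr43, Nop14, Bysl, Nob1, Rrp12) and 10 in large subunit assembly (Pes1, Bop1, Wdr12, Nop2, Nop16, Rrs1, Ebna1bp2, Nip7, Gnl3, Ddx21). All 32 were found and all 32 passed the filter on low counts, which kept 16262 genes.

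The cells were flushed from femur and tibia of C57BL/6 mice, freed of red cells by lysis, and enriched on magnetic beads against CD117, the c-kit receptor carried by blood stem and progenitor cells. The genotypes were WT (3 libraries), Asxl1-/- (2 libraries), Jak2V617F (3 libraries) and Asxl1-/-Jak2V617F (3 libraries). Asxl1 is a chromatin protein and cofactor of the deubiquitinase BAP1. The V617F change makes the cytokine-signalling kinase Jak2 active without cytokine and is common in myeloproliferative neoplasms. How the alleles were built, any Cre driver, the mice's age and any pooling of animals are not stated in the sources at hand. No label says whether libraries of a genotype stem from separate mice, so every p-value reflects only library-to-library spread, part of which may be technical.

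A ribosome starts as a long precursor RNA made by RNA polymerase I in the nucleolus. Small nucleolar ribonucleoproteins guide its methylation and pseudouridylation, the small subunit processome cuts and folds one part, and a separate set of factors builds the large subunit on the other. Myc, a transcription factor that works as a pair with Max, is known to raise transcription of many of these genes in growing blood progenitors.

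Libraries held 16198011 to 19196283 counts. Asxl1 was 93.0 ± 5.66 CPM (read counts relative to the TMM-scaled library size, edgeR's cpm; mean ± SD) in Asxl1-/- (n = 2) and 96.4 ± 3.61 in Asxl1-/-Jak2V617F (n = 3), against 162 ± 1.41 in WT (n = 3) and 157 ± 34.4 in Jak2V617F (n = 3). Kit, the marker of the sort, lay between 218.8 and 338.3 CPM in every library. Of the 5 progenitor markers, which include Kit, 0 rose and 3 fell in Jak2V617F against WT, and 3 rose and 0 fell in Asxl1-/-Jak2V617F against Jak2V617F. Cd34 was 14.6 to 22.1 CPM in Jak2V617F, 121 to 143 in WT, 199 to 204 in Asxl1-/- and 111 to 156 in Asxl1-/-Jak2V617F, and Myb was 310 to 349, 494 to 541, 471 to 498 and 440 to 518. The Jak2V617F libraries stood apart in other lineage markers. The 6 primary granule markers summed to 0.0737 to 0.129% of counts there, against 1.03 to 1.28% in WT, 1.37 to 1.45% in Asxl1-/- and 1.14 to 2.05% in Asxl1-/-Jak2V617F. The 8 late neutrophil markers took 0.193 to 0.524% in Jak2V617F, 3.36 to 5.15% in WT, 4.73 to 4.98% in Asxl1-/- and 2.32 to 2.96% in Asxl1-/-Jak2V617F. Conversely, the 12 erythroid markers took 0.500 to 0.649% in Jak2V617F, 0.125 to 0.208% in WT, 0.170 to 0.187% in Asxl1-/- and 0.159 to 0.278% in Asxl1-/-Jak2V617F. The 7 dendritic cell and MHC class II markers took 0.270 to 0.372% in Jak2V617F and 0.0236 to 0.0475% in the other 8 libraries. No marker was at 0 in every library. Both Asxl1-/- libraries and Jak2V617F 2 carried reads on Y-linked genes (192, 194 and 248 CPM), while the other libraries had Xist at 1390 to 2150 CPM.

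Together the 32 genes took 0.574 to 0.697% of all counts in WT, 0.716 to 0.770% in Asxl1-/-, 0.800 to 0.973% in Asxl1-/-Jak2V617F and 1.16 to 1.31% in Jak2V617F. These ranges did not overlap. WT had the lowest mean CPM of the 4 genotypes for all 32 genes, and Jak2V617F had the highest for 30. The means ran Jak2V617F, Asxl1-/-Jak2V617F, Asxl1-/-, WT from high to low for 22 genes. For 8 genes (Polr1c, Bysl, Nob1, Bop1, Wdr12, Nop16, Rrs1, Nip7) Asxl1-/- stood above Asxl1-/-Jak2V617F, and for Myc and Nop10 Asxl1-/- was highest of all. The 2 Asxl1-deleted genotypes were neighbours in the first 2 of these orders. Of the 32 genes 31 did not pass the test between them, in which few of all tested genes passed (3.31% higher, 2.22% lower). For 25 genes every Jak2V617F library lay above the other 8 libraries, an arrangement found for 16.4% of all genes tested. The 7 exceptions were Myc, Nop58, Dkc1, Nop10, Nop16, Rrs1 and Ebna1bp2. In bulk RNA, fewer cells of a type and less RNA per cell cannot be told apart, and this holds for each result below.

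**Figure D1:**
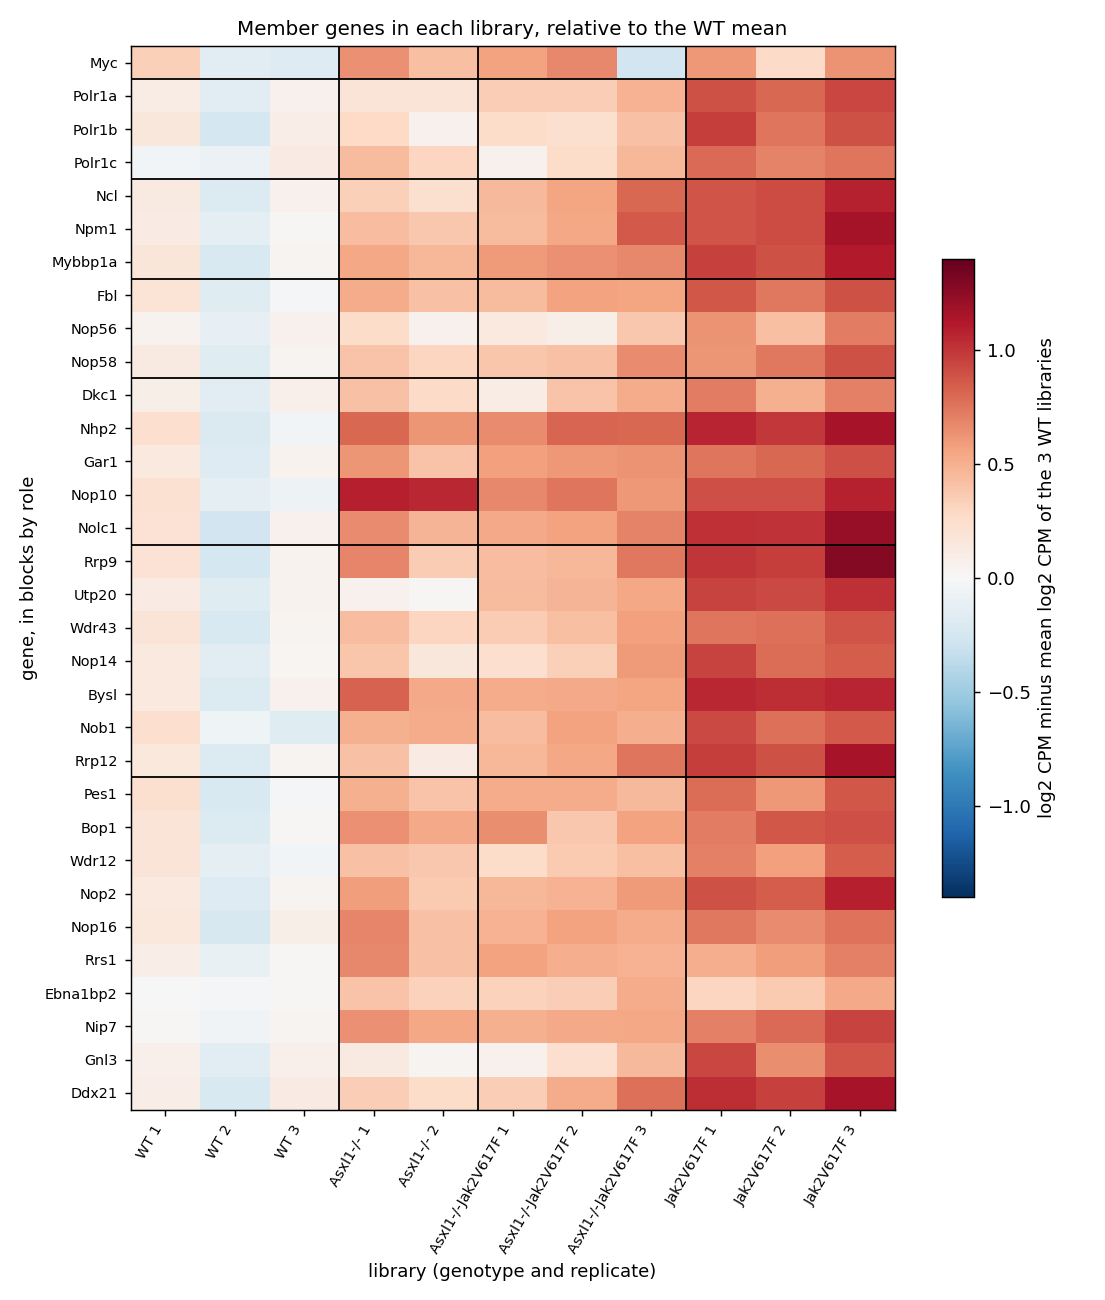
Heat map of the 32 genes (rows, grouped by role) in the 11 libraries (columns), coloured by log2 CPM minus the mean log2 CPM of the WT libraries. The 3 Jak2V617F columns are the highest for 25 genes, and the row of Myc differs from the others by its spread within genotypes.

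Levels per gene length (FPKM: CPM per kilobase of the deposited gene length), averaged over the 11 libraries, spanned a wide range. Npm1, a histone chaperone and nucleolar shuttle protein, was highest at 518, followed by Ncl, the main RNA-binding protein of the nucleolus, at 181 and Nhp2, a box H/ACA core protein, at 151. Lowest were Wdr12, a partner of Pes1 and Bop1, at 9.50, Polr1a at 13.5 and Utp20 at 13.9. On this scale of levels Myc, at 86.3, ranked 8 of 32.

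The libraries of a genotype did not scatter independently from gene to gene. WT 2 had the lowest CPM of the WT libraries for 30 of the 32 genes and WT 1 the highest for 27. Asxl1-/- 1 was above Asxl1-/- 2 for 31 genes. Asxl1-/-Jak2V617F 3 was highest of its genotype for 23 genes and Asxl1-/-Jak2V617F 1 lowest for 25, and Jak2V617F 3 was highest for 26 and Jak2V617F 2 lowest for 22. The 32 genes are therefore not 32 separate measurements of a genotype. The median coefficient of variation over the genes was 11.5% in WT, 5.99% in Asxl1-/-, 6.40% in Asxl1-/-Jak2V617F and 7.46% in Jak2V617F.

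Myc (ENSMUSG00000022346, mm10 chromosome 15, 61985391 to 61990374, plus strand) was the most variable of the 32 genes in WT, Asxl1-/-Jak2V617F and Jak2V617F, with coefficients of variation of 20.9%, 31.6% and 13.4%. It was 229.8, 164.9 and 160.9 CPM in WT, 284.4 and 244.1 in Asxl1-/-, 270.8, 290.8 and 151.7 in Asxl1-/-Jak2V617F, and 279.0, 220.3 and 282.0 in Jak2V617F. Both Asxl1-/- libraries lay above all WT libraries. In Jak2V617F, library 2 lay below WT 1, and in Asxl1-/-Jak2V617F, library 3 lay below every WT library while the other 2 lay above. By edgeR's quasi-likelihood test Myc passed in no comparison: its log2 fold change was 0.49 ± 0.23 (SE) in Jak2V617F against WT (adjusted p = 0.104, 95% interval -0.03 to 1.02). The value was 0.51 ± 0.26 in Asxl1-/- against WT (adjusted p = 0.183) and 0.36 ± 0.23 in Asxl1-/-Jak2V617F against WT (adjusted p = 0.311). Against Jak2V617F, Asxl1-/-Jak2V617F differed by -0.13 ± 0.23 (adjusted p = 0.684), with a 95% interval from -0.65 to 0.39 that allows a change in either direction. One library decided part of this. Without Asxl1-/-Jak2V617F 3 the adjusted p of Myc was 0.0164 in Jak2V617F against WT, 0.0438 in Asxl1-/- against WT and 0.0367 in Asxl1-/-Jak2V617F against WT. Jak2V617F against WT also passed without WT 1 (0.72, adjusted p = 0.0417), in a fit of those 2 genotypes alone (adjusted p = 0.0264) and with DESeq2 (adjusted p = 0.03).

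Several factors that share the Max network with Myc did pass. Of 10 genes in a list of this network, 6 fell and 1 rose in Jak2V617F against WT, against 29.2% and 24.4% of all tested genes. In Asxl1-/-Jak2V617F against Jak2V617F 5 rose and 2 fell, against 24.5% and 19.8%. The count of 2 was 1 without Asxl1-/-Jak2V617F 1, Asxl1-/-Jak2V617F 2 or Jak2V617F 2. Max and Mga were among the 3 genes of highest level. Max was 132 ± 3.81 CPM in Jak2V617F and 135 ± 8.02 in WT (-0.04 ± 0.07, adjusted p = 0.698), and Mga, a Max partner with an additional T-box domain, 146 ± 20.3 and 134 ± 9.0 (0.13 ± 0.10, adjusted p = 0.267). In Asxl1-/- against WT Max rose (0.30 ± 0.08, adjusted p = 0.0248) and Mga fell (-0.62 ± 0.11, adjusted p = 0.00425). In Asxl1-/-Jak2V617F Mga fell against Jak2V617F (-0.29 ± 0.10, adjusted p = 0.0282) and rose against Asxl1-/- (0.46 ± 0.11, adjusted p = 0.0322). Max passed in neither of these. Mxd1, a repressor that pairs with Max, was 55.8 ± 22.0 CPM in Jak2V617F, 176 ± 40.0 in WT, 167 ± 34.1 in Asxl1-/- and 165 ± 42.7 in Asxl1-/-Jak2V617F. Mxd1 fell by 1.65 ± 0.32 (log2) in Jak2V617F against WT (adjusted p = 0.00189) and rose by 1.57 ± 0.31 in Asxl1-/-Jak2V617F against Jak2V617F (adjusted p = 0.00337).

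The remaining factors of the network are named after their values were seen. The other Mxd repressors fell in Jak2V617F against WT as well: Mxd3 by 1.39 ± 0.14, Mxd4 by 1.01 ± 0.13 and Mxi1 by 0.87 ± 0.08 on the log2 scale. All 3 rose in Asxl1-/-Jak2V617F against Jak2V617F (0.68 ± 0.14, 0.59 ± 0.13 and 0.94 ± 0.08). These 2 comparisons share the 3 Jak2V617F libraries, which alone favours opposite signs, so their values are given side by side here and below. Mycl, a Myc paralog, went the other way, from 2.41 ± 0.804 CPM in WT to 23.4 ± 4.34 in Jak2V617F and 3.28 ± 1.42 in Asxl1-/-Jak2V617F. Mycn, the third paralog, was 6.99 ± 1.63 CPM in WT, 2.84 ± 1.17 in Jak2V617F and 3.22 ± 0.664 in Asxl1-/-Jak2V617F, and fell in both against WT (-1.30 ± 0.31, adjusted p = 0.00393, and -1.12 ± 0.31, adjusted p = 0.0342). In Asxl1-/-Jak2V617F against WT 3 of the 10 genes fell and 0 rose, against 6.76% and 8.30% of all tested genes. The 3 were Mycn, Mxd3 (-0.72 ± 0.14, adjusted p = 0.0114) and Mxd4 (-0.42 ± 0.13, adjusted p = 0.0460). Mxd1 (-0.09 ± 0.31) and Mxi1 (0.07 ± 0.08) did not pass there. Without WT 2 no gene of the list fell in Asxl1-/-Jak2V617F against WT. Mlx, which pairs with several Mxd proteins, fell by 0.25 ± 0.09 in Jak2V617F against WT (adjusted p = 0.0363), and Mnt did not pass (-0.23 ± 0.15, adjusted p = 0.228). The granule marker sums given above fell and rose in the same comparisons as the Mxd genes, and their part in these values was not tested.

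Myc and Max bind the hexamer CACGTG, called an E-box. RefSeq promoter windows on GRCm38.p6, from 250 bases before to 50 bases after a gene's start, were at hand for 26 of the 32 genes. Myc, Npm1, Fbl, Rrp12, Bop1 and Rrs1 had no entry. The letters CACGTG, which read alike on both strands and were matched exactly, stood in the windows of 5 genes (19.2%). They stood in 11.5% of the 10857 tested genes with a window and in 8.09% of all 27025 genes in the RefSeq table. The 5 sites are printed 5′ to 3′ on the strand of the gene, with the hexamer in capitals and up to 12 bases on each side, to show the letters that these genes share near their starts.

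Nop2: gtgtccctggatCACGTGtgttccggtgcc
Mybbp1a: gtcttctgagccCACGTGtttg
Pes1: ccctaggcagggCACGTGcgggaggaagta
Utp20: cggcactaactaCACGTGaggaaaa
Wdr43: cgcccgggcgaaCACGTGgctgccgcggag

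The sites lie at chr6:125131811-125131840 (plus strand) for Nop2, chr11:72441355-72441376 (plus) for Mybbp1a, chr11:3963965-3963994 (plus) for Pes1, chr10:88826765-88826789 (minus) for Utp20 and chr17:71616220-71616249 (plus) for Wdr43. The hexamer of Nop2 begins 60 bases before the annotated start, and the hexamers of the other 4 lie within the first 50 transcribed bases. A match describes the letters and is not a measured binding site. No binding data were used.

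The comparison of Jak2V617F with WT asks what the activated kinase does in these cells. Of the 32 genes, 31 rose and none fell, all but Myc, against 24.4% of all tested genes that rose and 29.2% that fell. At an unadjusted p under 0.05 and with DESeq2, 0 of the 32 were lower as well. Their median log2 fold change was 0.84, from 0.40 to 1.08, beside -0.05 for all genes tested. The 2 genotypes did not overlap for 31 genes, an arrangement found in the higher direction for 27.7% of all genes and in the lower for 33.3%. Every role took part: 3 of 3 polymerase I subunits, 3 of 3 nucleolar proteins, 3 of 3 box C/D genes, 5 of 5 box H/ACA genes, 7 of 7 small subunit and 10 of 10 large subunit factors rose. The count was 31 or 32 without each library in turn. The erythroid markers rose in the same comparison (12 of 12) while the primary granule (6 of 6) and late neutrophil (8 of 8) markers fell, and of 14 cell cycle genes 8 rose and 2 fell. Their part in the result was not tested.

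**Figure D2:**
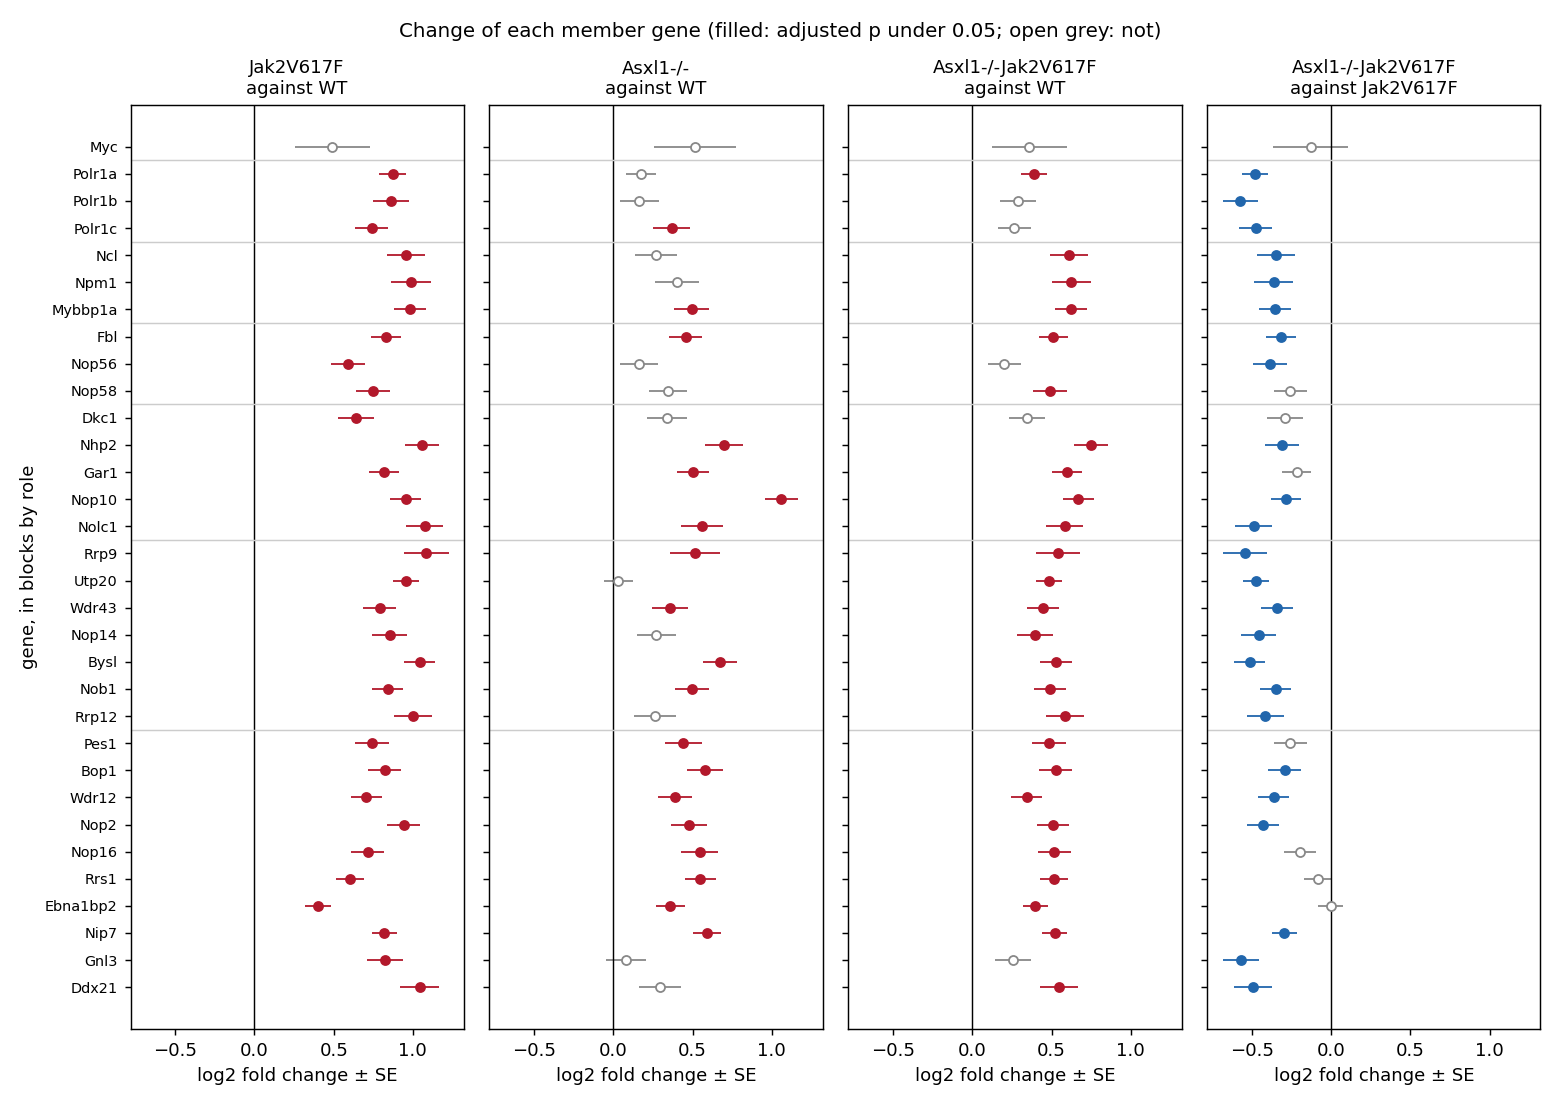
Log2 fold change ± SE for the 32 genes in 4 comparisons, one panel each, with genes as rows and filled points for an adjusted p under 0.05. Points lie right of 0 in the 3 comparisons with WT (0.03 to 1.06 in Asxl1-/-, 0.20 to 0.75 in Asxl1-/-Jak2V617F, 0.40 to 1.08 in Jak2V617F) and at or left of 0 in Asxl1-/-Jak2V617F against Jak2V617F.

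Polymerase I was represented by its largest subunit Polr1a (ENSMUSG00000049553, chromosome 6, 71909053 to 71984935, plus strand). Polr1a was 129.4, 107.3 and 124.8 CPM in WT, 136.2 and 135.9 in Asxl1-/-, 152.1, 152.4 and 168.9 in Asxl1-/-Jak2V617F, and 223.1, 209.0 and 229.7 in Jak2V617F. The 4 genotypes formed 4 separate steps with no overlap. It rose by 0.87 ± 0.08 on the log2 scale in Jak2V617F against WT (adjusted p = 7.26e-06), and Polr1b, the second largest subunit, by 0.86 ± 0.11. Polr1c, a subunit shared with RNA polymerase III, rose by 0.74 ± 0.10.

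Among the nucleolar proteins, Ncl (ENSMUSG00000026234, chromosome 1, 86344719 to 86359400) had the highest CPM of all 32 genes. Its levels were 1397, 1120 and 1329 CPM in WT, 1602 and 1487 in Asxl1-/-, 1745, 1879 and 2235 in Asxl1-/-Jak2V617F, and 2354, 2400 and 2701 in Jak2V617F. Again the genotypes did not overlap, and the Jak2V617F difference from WT was 0.95 ± 0.12 (adjusted p = 4.96e-05). Mybbp1a, a Myb-binding repressor that also sits at ribosomal DNA (ENSMUSG00000040463, chromosome 11, 72441355 to 72451768), was 426.1, 327.7 and 390.9 CPM in WT, 550.7 and 524.2 in Asxl1-/-, 572.4, 590.1 and 604.1 in Asxl1-/-Jak2V617F, and 739.2, 703.3 and 818.7 in Jak2V617F. It rose by 0.98 ± 0.10 against WT, close to the 0.99 ± 0.12 of Npm1.

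The box C/D proteins carry the guide RNAs for methylation of ribosomal RNA, with Fbl as the methyltransferase. Nop56 (ENSMUSG00000027405, chromosome 2, 130274430 to 130279313) was 311.4, 278.2 and 312.5 CPM in WT, 358.2 and 314.0 in Asxl1-/-, 329.8, 317.7 and 390.5 in Asxl1-/-Jak2V617F, and 463.7, 401.2 and 491.9 in Jak2V617F. The 2 Asxl1-deleted genotypes overlapped for Nop56, lay just above the highest WT library, and lay below all Jak2V617F libraries. It rose by 0.59 ± 0.11 in Jak2V617F against WT, less than Fbl (0.83 ± 0.09) and Nop58 (0.75 ± 0.11) in value. Those differences between genes were not tested. Nop56 hosts several small nucleolar RNAs in its introns and overlaps Idh3b on the other strand by 5 bases.

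The box H/ACA particle makes pseudouridines, with Dkc1 as the enzyme, and Nolc1 is a chaperone that shuttles the particles. Nolc1 (ENSMUSG00000015176, chromosome 19, 46075863 to 46085530) was 282.1, 203.8 and 256.0 CPM in WT, 388.5 and 340.2 in Asxl1-/-, 354.7, 360.8 and 395.9 in Asxl1-/-Jak2V617F, and 499.1, 492.5 and 570.2 in Jak2V617F. The difference of Jak2V617F from WT was 1.07 ± 0.12 (adjusted p = 1.91e-05), and the 2 Asxl1-deleted genotypes overlapped in between. Nhp2 rose by 1.06 ± 0.11, Gar1 by 0.82 ± 0.09 and Dkc1 by 0.64 ± 0.11. Nop10, the smallest core protein (ENSMUSG00000027133, chromosome 2, 112261926 to 112263269), is described in full because its pattern differed, a choice made after its values were seen. It was 70.55, 55.67 and 57.92 CPM in WT, 129.4 and 126.7 in Asxl1-/-, 97.55, 102.4 and 93.08 in Asxl1-/-Jak2V617F, and 114.0, 114.0 and 128.9 in Jak2V617F. Here the Asxl1-/- and Jak2V617F libraries overlapped, and those of Asxl1-/-Jak2V617F lay between them and WT.

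**Figure D3:**
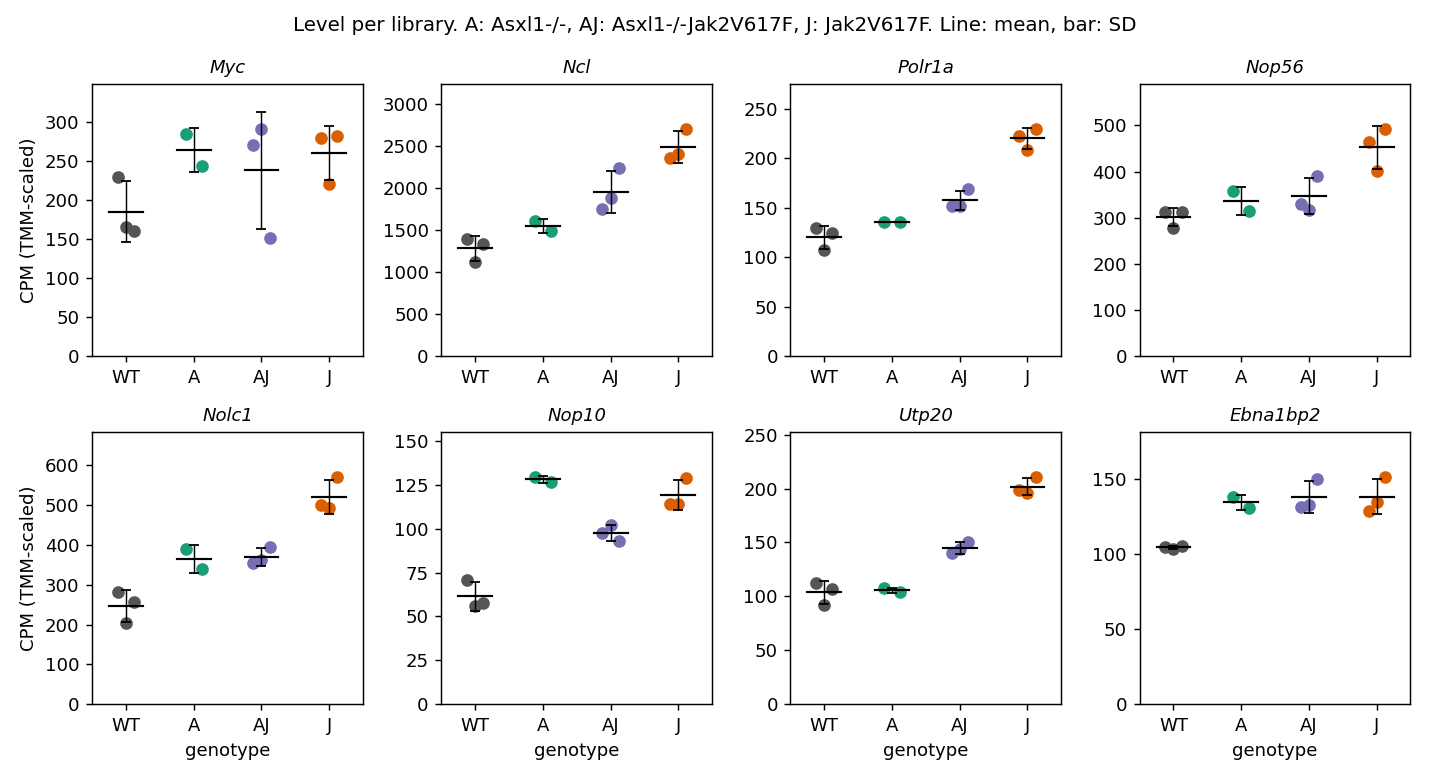
CPM in each library (points) by genotype for 8 of the genes, with the group mean as a line and the SD as a bar, 1 panel per gene on its own linear axis from 0 (A is Asxl1-/-, AJ Asxl1-/-Jak2V617F, J Jak2V617F). Polr1a and Ncl step up from WT through Asxl1-/- and Asxl1-/-Jak2V617F to Jak2V617F, Nop10 overlaps between Asxl1-/- and Jak2V617F, and Myc overlaps between most genotypes.

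Small subunit processing was led by Utp20, a scaffold of the processome (ENSMUSG00000004356, chromosome 10, 88746607 to 88826804, minus strand). Utp20 was 112.3, 91.62 and 107.2 CPM in WT, 107.4 and 104.2 in Asxl1-/-, 140.2, 143.8 and 150.9 in Asxl1-/-Jak2V617F, and 198.7, 195.6 and 210.6 in Jak2V617F. The Asxl1-/- libraries lay within the WT range, while both Jak2V617F genotypes lay above it. Wdr43 (ENSMUSG00000041057, chromosome 17, 71616215 to 71659031), a processome protein of the UTP-A branch, was 165.2, 125.5 and 150.0 CPM in WT, 197.1 and 179.3 in Asxl1-/-, 187.3, 195.9 and 217.6 in Asxl1-/-Jak2V617F, and 245.2, 248.3 and 268.9 in Jak2V617F. In Jak2V617F against WT, Utp20 rose by 0.96 ± 0.08 (adjusted p = 3.23e-06) and Wdr43 by 0.79 ± 0.10 (adjusted p = 6.23e-05). The other 5 rose by 0.84 to 1.08, with Rrp9, a U3 particle protein, at 1.08 ± 0.14, and Nob1, the endonuclease that makes the mature end of 18S RNA, at 0.84 ± 0.10.

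Of the large subunit factors, Gnl3 (nucleostemin; ENSMUSG00000042354, chromosome 14, 31012433 to 31019152) was 183.3, 156.8 and 183.3 CPM in WT, 189.9 and 178.3 in Asxl1-/-, 181.0, 205.2 and 239.2 in Asxl1-/-Jak2V617F, and 333.2, 273.8 and 320.0 in Jak2V617F. WT, Asxl1-/- and Asxl1-/-Jak2V617F overlapped, and Jak2V617F stood apart. Ddx21, an RNA helicase (ENSMUSG00000020075, chromosome 10, 62580251 to 62602281), was 376.8, 304.6 and 382.6 CPM in WT, 447.9 and 421.8 in Asxl1-/-, 448.8, 504.9 and 600.4 in Asxl1-/-Jak2V617F, and 721.8, 686.9 and 783.2 in Jak2V617F. Ddx21 rose by 1.04 ± 0.12 against WT and Gnl3 by 0.82 ± 0.11. Pes1, Bop1 and Wdr12, which form the PeBoW complex, rose by 0.74 ± 0.11, 0.82 ± 0.11 and 0.71 ± 0.10. Ebna1bp2, which is needed for 27S precursor processing, had the smallest change of those that passed (0.40 ± 0.08, adjusted p = 0.00132). It was chosen for display after its values were seen: 104.8, 103.6 and 105.7 CPM in WT, 138.0 and 130.8 in Asxl1-/-, 131.3, 132.5 and 150.1 in Asxl1-/-Jak2V617F, and 128.8, 135.0 and 151.3 in Jak2V617F. WT was low for Ebna1bp2 and the other 3 genotypes overlapped.

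Asxl1-/-Jak2V617F against Jak2V617F asks what loss of Asxl1 does to cells that carry the activated kinase. Of the 32 genes 24 fell and none rose, against 19.8% of all tested genes that fell and 24.5% that rose. At an unadjusted p under 0.05 and with DESeq2, 28 were lower and 0 higher. The median log2 fold change was -0.35 (-0.58 to -0.00) beside -0.01 for all genes. The genotypes did not overlap for 27 genes, in the lower direction as for 25.5% of all genes (28.4% in the higher). With total counts as the only scaling, 20.9% of all genes were higher and 26.6% lower, the median of all genes was -0.12, and 29 of the 32 genes fell. Polymerase I subunits (3 of 3), nucleolar proteins (3 of 3) and small subunit factors (7 of 7) fell throughout, while 2 of 3 box C/D, 3 of 5 box H/ACA and 6 of 10 large subunit genes did.

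The values in this comparison were largest for Polr1b, which fell by 0.58 ± 0.11 on the log2 scale, Gnl3 (-0.57 ± 0.11), Rrp9 (-0.54 ± 0.14) and Bysl (-0.52 ± 0.10), a bystin that escorts the small subunit out of the nucleolus. Utp20 fell by 0.48 ± 0.08 (adjusted p = 0.000633), Polr1a by 0.48 ± 0.08 (adjusted p = 0.000675), Ddx21 by 0.50 ± 0.12, Nolc1 by 0.49 ± 0.12 and Nop56 by 0.39 ± 0.11. Mybbp1a fell by 0.36 ± 0.10, Wdr43 by 0.34 ± 0.10 and Nop10 by 0.28 ± 0.09 (adjusted p = 0.0294). The 8 genes that did not pass were Myc, Nop58 (-0.26 ± 0.11), Dkc1 (-0.29 ± 0.11), Gar1 (-0.22 ± 0.09), Pes1 (-0.26 ± 0.11), Nop16 (-0.20 ± 0.10), Rrs1 (-0.09 ± 0.09) and Ebna1bp2 (-0.00 ± 0.08). For Ebna1bp2 the 95% interval was -0.18 to 0.17, so a change of the size seen in Utp20 lies outside it.

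Of the 24 genes that fell, 16 passed in all 19 alternatives. Bop1 passed in 11 of the 19, Ncl in 13, Npm1 in 15, Nhp2 and Nop10 in 16, Wdr43 in 17, and Fbl and Rrp12 in 18. Bop1 fell by 0.30 on the log2 scale (adjusted p = 0.0376) and lost its call without Asxl1-/-Jak2V617F 2 (adjusted p = 0.137), Asxl1-/-Jak2V617F 3, Jak2V617F 2, Jak2V617F 3, WT 3 or either Asxl1-/- library, and with a sex term. The calls of Nhp2, Nop10, Wdr43, Fbl and Rrp12 were lost without Asxl1-/-Jak2V617F 1, those of Nhp2, Nop10 and Wdr43 also without Jak2V617F 3, that of Nhp2 without Jak2V617F 1 and that of Nop10 without Asxl1-/-Jak2V617F 3. Ncl fell by 0.35 ± 0.12 (adjusted p = 0.0334) and Npm1 by 0.36 ± 0.12 (adjusted p = 0.0318). Without Asxl1-/-Jak2V617F 1 the adjusted p was 0.122 for Ncl and 0.119 for Npm1, without Asxl1-/-Jak2V617F 2 it was 0.0936 and 0.0957, and without Jak2V617F 3 it was 0.103 and 0.113. Without either Asxl1-/- library the adjusted p of Ncl was 0.0505 and 0.0506, with a sex term it was 0.0543, and that of Npm1 was 0.0548 in a fit of those 2 genotypes alone. All 12 erythroid markers fell in this comparison, 6 of 6 primary granule and 8 of 8 late neutrophil markers rose, and 2 cell cycle genes rose and 2 fell of 14. Of 7 dendritic cell and MHC class II markers 6 fell and 0 rose. Of 8 T and NK markers 5 fell and 1 rose, and of 6 B cell markers 1 fell and 1 rose. Their part in the result was not tested.

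Asxl1-/- against WT asks what loss of Asxl1 does without the kinase mutation. Of the 32 genes 19 rose and none fell, against 11.3% of all tested genes that rose and 11.2% that fell. Of the 32, 24 were higher at an unadjusted p under 0.05 and 21 with DESeq2, and 0 lower by either. The median was 0.42 (0.03 to 1.06) beside -0.01 for all genes, and the genotypes did not overlap for 28 genes, in the higher direction as for 28.7% of all genes (28.5% in the lower). With total counts as the only scaling 3.98% of all genes rose and 17.1% fell, the median of all genes was -0.17, and 11 of the 32 rose, while Gnl3 (-0.09), Nop56 (-0.00), Polr1b (-0.00) and Utp20 (-0.13) turned negative without passing. Without Asxl1-/- 1, which leaves 1 library in that group, fewer of the 32 and fewer of all tested genes passed. All 32 values were positive in that fit, with a median of 0.38. With a term for sex 1 of the 32 rose, Nop10, against 0.578% of all tested genes that rose and 2.51% that fell. All 32 values stayed positive with that term, and their median was 0.54. Only Jak2V617F held libraries with and without Y-linked reads, so that term rests on Jak2V617F 2 against the other Jak2V617F libraries. The kept signs therefore do not separate sex from genotype. Both Asxl1-/- libraries carried Y-linked reads and no WT library did, so sex and genotype cannot be told apart between these groups alone.

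Nop10 had the largest change (1.06 ± 0.11, adjusted p = 0.000463), and its adjusted p was 0.0171 with the sex term. Nhp2 rose by 0.70 ± 0.12, Bysl by 0.68 ± 0.11, Nip7 by 0.59 ± 0.09, Bop1 by 0.58 ± 0.12 and Nolc1 by 0.56 ± 0.13. Mybbp1a rose by 0.49 ± 0.11, Ebna1bp2 by 0.36 ± 0.09 and Wdr43 by 0.36 ± 0.11 (adjusted p = 0.0426). Utp20 had the smallest value (0.03 ± 0.09, adjusted p = 0.848), with a 95% interval from -0.17 to 0.23. Gnl3 (0.08 ± 0.13), Nop56 (0.16 ± 0.12), Polr1a (0.17 ± 0.09), Ncl (0.27 ± 0.13) and Ddx21 (0.29 ± 0.13) did not pass. No erythroid marker (0 of 12), primary granule (0 of 6) or late neutrophil marker (0 of 8) passed between Asxl1-/- and WT by edgeR or DESeq2 (0, 1 and 0 at an unadjusted p under 0.05), and of 14 cell cycle genes 3 rose and 1 fell. All 6 primary granule markers were nonetheless higher in both Asxl1-/- libraries than in any WT library (median log2 fold change 0.48), and 1 of the 5 progenitor markers rose. Their part in the result was not tested.

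With both lesions together, in Asxl1-/-Jak2V617F against WT, 26 of the 32 genes rose and none fell, against 8.30% of all tested genes that rose and 6.76% that fell. At an unadjusted p under 0.05, 30 were higher, and 27 with DESeq2, with 0 lower by either. The median was 0.51 (0.20 to 0.75) beside -0.02 for all genes, and 29 genes did not overlap, in the higher direction as for 17.1% of all genes (19.4% in the lower). With total counts as the only scaling, 4.60% of all genes rose and 9.18% fell, the median of all genes was -0.11 and 23 of the 32 rose. Without WT 2, the lowest WT library for most of these genes, the count was 14, against 1.69% of all genes that rose and 1.61% that fell. Nhp2 (0.75 ± 0.11), Nop10 (0.67 ± 0.10), Mybbp1a (0.63 ± 0.10), Npm1 (0.62 ± 0.12) and Ncl (0.61 ± 0.12) had the largest values, and Polr1a rose by 0.39 ± 0.08. The 6 that did not pass were Myc, Polr1b (0.29 ± 0.11), Polr1c (0.26 ± 0.10), Dkc1 (0.35 ± 0.11), Nop56 (0.20 ± 0.11) and Gnl3 (0.26 ± 0.11). Here 1 of 12 erythroid markers and 1 of 6 primary granule markers rose. All 6 primary granule values were positive (median 0.70), with 5 higher at an unadjusted p under 0.05 and 4 with DESeq2. No B cell marker passed by edgeR, but all 6 lay below WT without overlap (median -1.94). Of these, 5 were lower at an unadjusted p under 0.05 and 3 with DESeq2. Of 14 cell cycle genes 4 rose and 0 fell. The part of these markers in the result was not tested. Of 8 late neutrophil markers 0 passed by edgeR, 3 were lower at an unadjusted p under 0.05 and 1 by DESeq2. These 3 comparisons share the WT libraries, so their values are given side by side only.

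Between Asxl1-/-Jak2V617F and Asxl1-/-, 1 of the 32 genes rose and none fell by edgeR, against 3.31% and 2.22% of all tested genes (5.20% and 1.73% with total counts as the only scaling). At an unadjusted p under 0.05, 4 were higher and 1 lower, and DESeq2 called 1 in each direction. The genotypes did not overlap for 7 genes in the higher and 2 in the lower direction, as for 21.0% and 22.8% of all genes. The median was 0.04, from -0.39 to 0.45. The gene was Utp20 (0.45 ± 0.09, adjusted p = 0.0186), whose call was lost with a sex term (adjusted p = 0.359) and without Asxl1-/- 1, Asxl1-/- 2 or Asxl1-/-Jak2V617F 2 (adjusted p = 0.124, 0.157 and 0.0502). Nop10 lay lowest (-0.39 ± 0.11, adjusted p = 0.0546), and passed with DESeq2 (adjusted p = 0.027). Both Asxl1-/- libraries carried Y-linked reads and no Asxl1-/-Jak2V617F library did, so sex and genotype cannot be told apart here either.

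The test of the difference between the 2 effects of Asxl1 loss, that in Jak2V617F cells minus that in WT cells, passed for 31 of the 32 genes. All 31 differences were negative, against 17.9% of all tested genes that were lower and 23.7% that were higher. Their median on the log2 scale was -0.74 beside 0.10 for all genes. Nop10 had the largest (-1.34, 95% interval -1.66 to -1.03), then Bysl (-1.19, -1.51 to -0.87), Rrp9 (-1.06, -1.52 to -0.60) and Nolc1 (-1.05, -1.43 to -0.67). Ebna1bp2 had the smallest (-0.36, -0.63 to -0.10), and Myc did not pass (-0.64, -1.43 to 0.14, adjusted p = 0.168). With a sex term, which rests on Jak2V617F 2 against the other Jak2V617F libraries, 21 of the 32 passed. Of all tested genes 7.21% were lower and 11.7% higher in that fit. This difference uses all 4 genotypes, and the erythroid markers were lower in it too (10 of 12) while 6 of 6 primary granule markers were higher; their part was not tested.

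**Figure D4:**
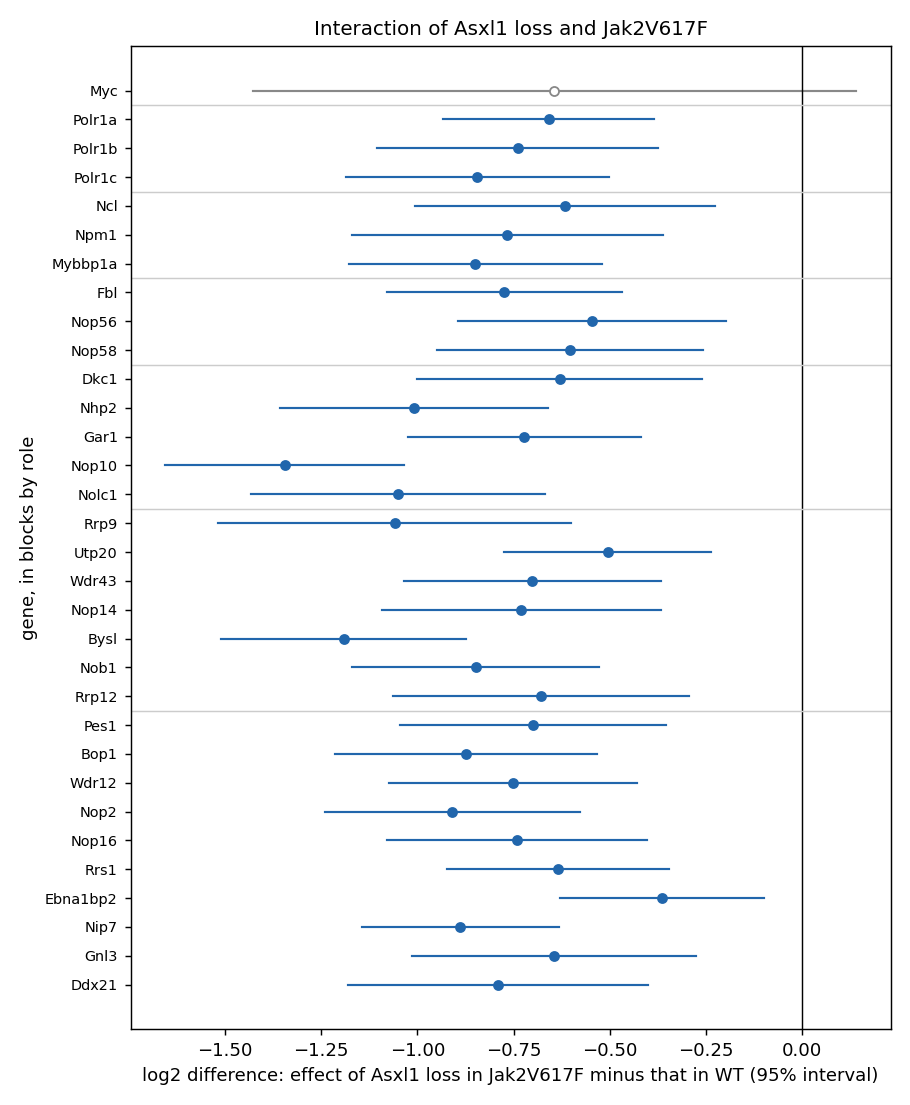
Difference between the effect of Asxl1 loss in Jak2V617F cells and in WT cells on the log2 scale, with its 95% interval, for the 32 genes. All intervals lie below 0 except that of Myc (-1.43 to 0.14).

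Other genes of the pathway were counted from lists that do not hold the 32. In Jak2V617F against WT, 36 of 42 small subunit processome genes and 41 of 42 large subunit genes rose and none fell, with medians of 0.69 and 0.68. Of 13 further RNA polymerase I genes 8 rose and 2 fell, of 11 snoRNP assembly genes 10 rose and 1 fell, and of 13 RNA exosome genes 11 rose and none fell. Between Asxl1-/-Jak2V617F and Jak2V617F the small subunit list had 23 lower of 42 and the large subunit list 22 of 42, none higher, and the medians were -0.32 and -0.31. There, 5 of 13 polymerase I genes fell and 1 rose, 2 of 11 snoRNP assembly genes fell and 1 rose, and 7 of 13 exosome genes fell and 1 rose. The small subunit count was 15 without Asxl1-/-Jak2V617F 1 or without Jak2V617F 3, and the large subunit count was 34 with total counts as the only scaling. The snoRNP assembly count was 7 with total counts alone, and it was 0 without Asxl1-/-Jak2V617F 1, Asxl1-/-Jak2V617F 2 or Jak2V617F 3.

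The 3 genes of highest CPM stand for each list. Heatr1, a processome protein that also acts in polymerase I transcription, rose by 0.97 ± 0.09 in Jak2V617F against WT and fell by 0.51 ± 0.08 in Asxl1-/-Jak2V617F against Jak2V617F. Pdcd11 (0.98 ± 0.09 and -0.64 ± 0.09) and the GTPase Bms1 (0.80 ± 0.11 and -0.33 ± 0.11) also passed in each. Of the large subunit list, the giant ATPase Mdn1 (0.84 ± 0.11 and -0.48 ± 0.11) and Noc2l (0.57 ± 0.10 and -0.36 ± 0.10) passed in both, and Rrp1 in the first (0.58 ± 0.10 and -0.24 ± 0.10). Ubtf, the polymerase I activator that binds ribosomal DNA, rose by 0.59 ± 0.08 and fell by 0.30 ± 0.08, Tcof1 (treacle) rose by 0.71 ± 0.10 and did not pass in the second (-0.12 ± 0.10), and Taf1d passed in neither (0.18 ± 0.11 and -0.10 ± 0.11). The AAA ATPases Ruvbl1 (0.71 ± 0.13) and Ruvbl2 (0.60 ± 0.08) and the shared core protein Snu13 (0.88 ± 0.12) rose in Jak2V617F against WT, and Snu13 fell in the second comparison (-0.35 ± 0.12). Of the exosome genes Skiv2l2 (0.55 ± 0.10 and -0.36 ± 0.10) and Exosc8 (0.51 ± 0.07 and -0.38 ± 0.07) passed in both, and Exosc10 in the first (0.39 ± 0.08 and -0.13 ± 0.08).

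Of 24 Myc targets outside the pathway, 21 rose and 1 fell in Jak2V617F against WT (median 0.82), and 14 fell and 1 rose in Asxl1-/-Jak2V617F against Jak2V617F (median -0.32). The second count was 8 without Asxl1-/-Jak2V617F 1 or Asxl1-/-Jak2V617F 2, and 9 without Jak2V617F 3. The mitochondrial chaperone Hspd1 rose by 1.35 ± 0.17 and fell by 0.61 ± 0.16. Ldha, the lactate dehydrogenase, rose by 0.55 ± 0.07 and did not pass in the second comparison (0.11 ± 0.07), and Ptma, prothymosin, did not pass in the first (0.06 ± 0.11) and rose by 0.38 ± 0.11 in the second, where the count of higher genes was 0 without Asxl1-/-Jak2V617F 2, Jak2V617F 1 or Jak2V617F 2, with total counts alone and with a sex term.

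The products of the ribosomal protein genes are assembled by these factors. Of 38 cytosolic ribosomal protein genes 27 rose and none fell in Jak2V617F against WT (median 0.43), 32 rose in Asxl1-/- against WT (median 0.61) and 17 rose in Asxl1-/-Jak2V617F against WT (median 0.36). Between Asxl1-/-Jak2V617F and Jak2V617F 0 of 38 passed by edgeR (median -0.06), 0 at an unadjusted p under 0.05 and 0 by DESeq2. In the test of the difference between the 2 effects of Asxl1 loss, 30 of the 38 were lower and 0 higher (median -0.68), beside 31 of the 32 biogenesis genes with Myc (median -0.74). That 30 was 5 with a sex term and 15 without Asxl1-/- 1. Between Asxl1-/-Jak2V617F and Jak2V617F, 5 of the 38 fell with total counts as the only scaling, and 1 in a fit of those 2 genotypes alone, without Asxl1-/-Jak2V617F 3 and without WT 1. The counts against WT rest on single libraries: the first was 17 without WT 2, and the second 2 without Asxl1-/- 1, 14 without Asxl1-/- 2, 19 without WT 2 and 17 without WT 3. With a sex term the second was 1, in a fit where 0.578% of all tested genes rose. The third was 0 without WT 2, WT 3 or Asxl1-/-Jak2V617F 2, 2 without Asxl1-/-Jak2V617F 1, 6 without either Asxl1-/- library and 35 without WT 1. Rplp0, of the ribosomal stalk, rose by 0.62 ± 0.15 in Jak2V617F against WT and by 0.64 ± 0.16 in Asxl1-/- against WT, and differed by -0.15 ± 0.15 between Asxl1-/-Jak2V617F and Jak2V617F. Rpl4 gave 0.50 ± 0.13, 0.54 ± 0.15 and -0.14 ± 0.13, and Rpl3 gave 0.43 ± 0.10, 0.37 ± 0.11 and -0.05 ± 0.10. The difference between the 2 lists was not tested.

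**Figure D5:**
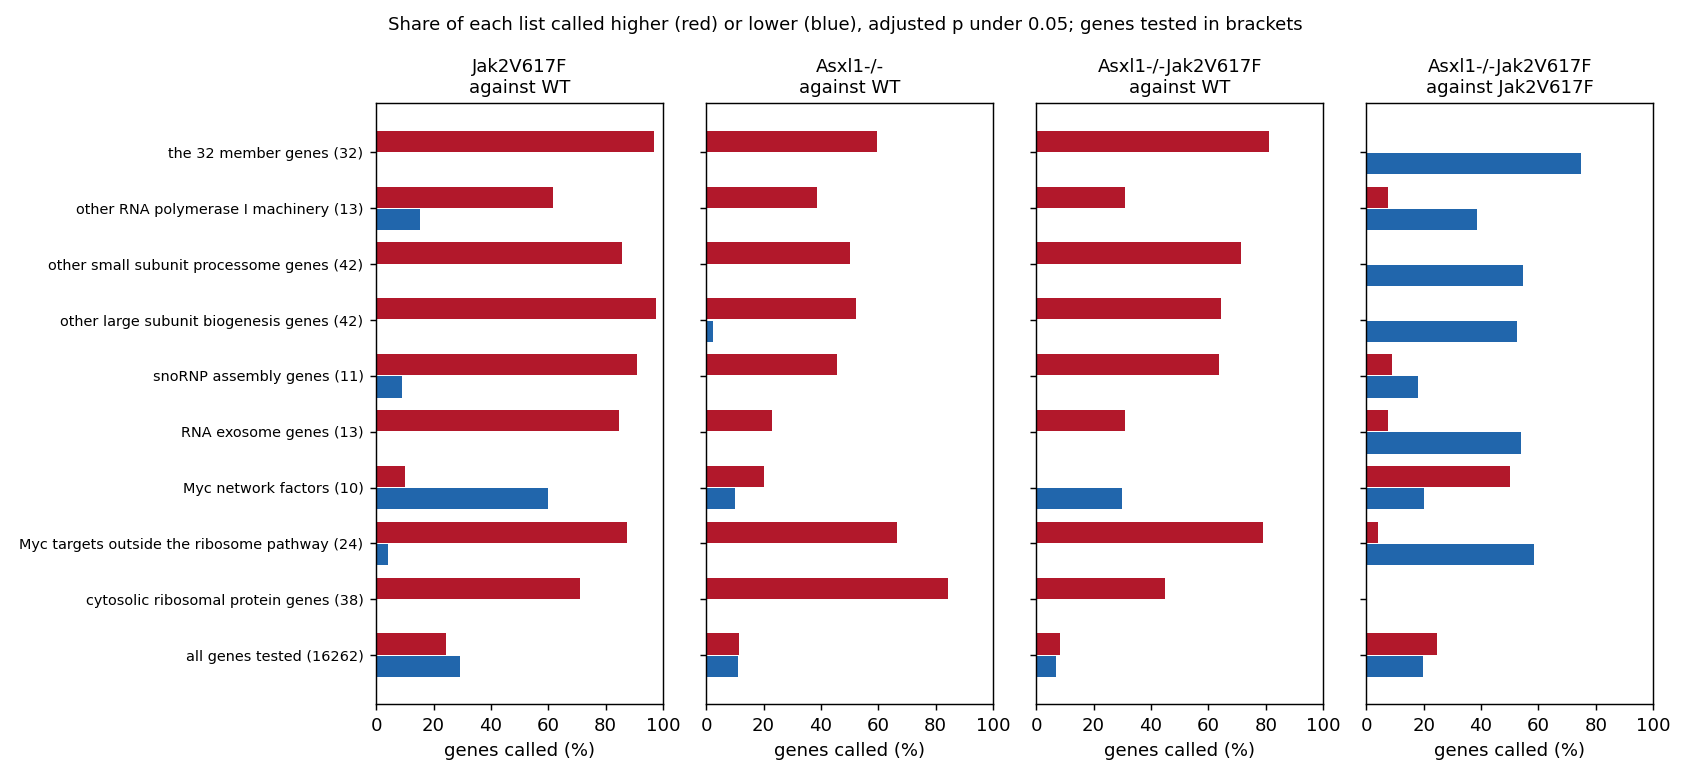
Share of genes that passed the test, higher in red and lower in blue, for the 32 genes, each list and all genes tested, in 4 comparisons (percent of genes, linear axis from 0). In Asxl1-/-Jak2V617F against Jak2V617F the biogenesis genes reach 75.0% lower, the cytosolic ribosomal protein genes 0%, and all genes 19.8%.

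Of the 32 genes 15 overlap another gene in the table, 12 of them one on the other strand. Without a stated strand setting, reads that fall within the stretch shared by such a pair cannot be told apart. For 7 genes a partner's counts reached 13.4% or more of their own: Nop56 (Idh3b), Dkc1 (Mpp1), Nhp2 (Rmnd5b), Rrp9 (Parp3), Bysl (Ccnd3), Bop1 (Mroh1) and Gnl3 (Pbrm1). These are the partners' counts over their whole length. The shared stretch was 5 bases for Idh3b, 15 for Pbrm1, 44 for Rmnd5b, 45 for Mpp1, 50 for Mroh1, 361 for Ccnd3 and 987 for Parp3. Idh3b, with 37.6% of the counts of Nop56, moved with it: 0.60 beside 0.59 in Jak2V617F against WT, and -0.47 beside -0.39 in Asxl1-/-Jak2V617F against Jak2V617F. Of the other 6 partners 3 fell in Jak2V617F against WT (Ccnd3, Parp3, Mroh1) and 3 did not pass. Ccnd3, the cyclin D3 gene, held 375% of the counts of Bysl and moved opposite to it, by -1.06 in Jak2V617F against WT and 0.98 in Asxl1-/-Jak2V617F against Jak2V617F. Of the 17 genes with no overlapping partner, 16 rose in Jak2V617F against WT, beside 24.4% of all tested genes. In Asxl1-/-Jak2V617F against Jak2V617F 12 fell, beside 19.8%. In Asxl1-/- against WT 11 rose, beside 11.3%, and in Asxl1-/-Jak2V617F against WT 14, beside 8.30%.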

How the data were processed

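RNA-seq libraries of c-kit+ bone marrow cells were grouped by the labels' genotype. The authors deposited 1 table of unnormalized read counts, with an Ensembl identifier, length and coordinates for each gene. Per the submitters' processing notes, HISAT2 2.0.5, featureCounts 1.5.0-p3, DESeq2 1.16.1 and mm10 were used, among other tools with no role stated. Strandedness, multiply mapped reads and annotation release were not stated. Chi-square per degree of freedom between replicates was 7.75 to 33.1, above sampling noise, and all were kept.

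Genes were filtered with filterByExpr by genotype. After TMM scaling, edgeR 4.0.16 (R 4.3.3, limma 3.58.1) gave the robust quasi-likelihood test in 1 fit of 11 libraries, with 5 comparisons and 1 interaction. The common biological coefficient of variation was 19.7% and the median prior degrees of freedom 4.64. P-values were adjusted by Benjamini-Hochberg over the 16262 genes, at a threshold of 0.05. The SE is the absolute log2 fold change over the square root of F. The script was tested on simulated data.

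The 32 genes and all lists were chosen with earlier results of these data known. The lists were 8 of pathways (other RNA polymerase I, small subunit processome, large subunit, snoRNP assembly, exosome, Myc network, Myc targets, cytosolic ribosomal proteins) and 8 of cell type or cycle markers. The Myc target list shares Ppan with the large subunit list. Of T and NK markers 2 of 8 rose and 1 fell in Jak2V617F against WT, and of B cell markers 0 of 6 rose and 1 fell. Genes shown in full are Myc and, in each role, the gene of smallest adjusted p in Asxl1-/-Jak2V617F against Jak2V617F and that of highest mean CPM. In the other lists, the 3 genes of highest mean CPM are named. Alternatives were DESeq2 1.42.0, median-of-ratios scaling, total counts as the only scaling, no filter, CPM of 1 in 3 libraries, only the groups compared, a replicate block, a sex term and leaving out each library.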

Additional observations from a re-analysis of the deposited data

Results flagged for a closer look

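The effect of Asxl1 loss differed between Jak2V617F and WT cells for 31 of the 32 genes, by edgeR's test of the difference itself with Benjamini-Hochberg adjustment. All 31 were lower, against 17.9% of all tested genes that were lower and 23.7% that were higher. With a sex term, which rests on Jak2V617F 2 against the other Jak2V617F libraries, 21 passed, against 7.21% lower and 11.7% higher. Sex and genotype cannot be told apart between Asxl1-/- and WT. The values are the log2 fold change of Asxl1-/-Jak2V617F against Jak2V617F minus that of Asxl1-/- against WT. The most negative were Nop10 (-1.34), Bysl (-1.19), Rrp9 (-1.06), Nolc1 (-1.05) and Nhp2 (-1.01). Between them and the middle lay Nop2 (-0.91), Nip7 (-0.89), Bop1 (-0.87), Mybbp1a (-0.85), Nob1 (-0.85) and Polr1c (-0.84). The middle held Ddx21 (-0.79), Npm1 (-0.77), Fbl (-0.77), Wdr12 (-0.75), Polr1b (-0.74), Nop16 (-0.74), Nop14 (-0.73), Gar1 (-0.72), Wdr43 (-0.70) and Pes1 (-0.70). The smallest were Rrp12 (-0.68), Polr1a (-0.66), Gnl3 (-0.65), Dkc1 (-0.63), Rrs1 (-0.63), Ncl (-0.62), Nop58 (-0.60), Nop56 (-0.55), Utp20 (-0.51) and Ebna1bp2 (-0.36). Groups of 2 or 3 libraries were too small for a test of single outlying libraries.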

How the results depend on the processing

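Directions of the 32 genes held under every alternative in Jak2V617F against WT, where 31 or 32 rose, and in the interaction, where 21 (sex term) to 31 passed and leaving out a library gave 25 to 31. In Asxl1-/-Jak2V617F against Jak2V617F the 24 lower genes became 24 to 29 under other settings and 17 to 28 without a library. The lowest was without Asxl1-/-Jak2V617F 1, where 15.0% of all tested genes fell. In Asxl1-/- against WT the 19 higher genes became 11 with total counts alone, where 3.98% of all tested genes rose. The count became 1 with a sex term, where 0.578% rose, and at most 22 without a library. Leaving out either Asxl1-/- library leaves 1 in that group, so no lowest count is given. Without Asxl1-/- 1 fewer genes passed, and the median of the 32 was 0.38 beside 0.00 for all genes. In Asxl1-/-Jak2V617F against WT the 26 became 14 to 28 without a library, lowest without WT 2, where 1.69% of all tested genes rose. In Asxl1-/-Jak2V617F against Asxl1-/- the single higher gene became 0 with a sex term and 0 to 1 without a library, and the 0 lower genes became 1 (Nop10) with no filter, with only the groups compared and with DESeq2, and 0 to 1 without a library. No called gene among the 32 changed sign under any alternative. Deviations of same-numbered libraries from their genotype means correlated at -0.199 to 0.174 over 15 pairs (mean 0.00356). Those of differently numbered libraries correlated at -0.230 to 0.242 over 30 pairs. Deviations within groups of 2 or 3 libraries must sum to 0, so these values cannot decide whether same-numbered libraries were paired. The fit with a replicate block gave 31, 26, 23, 27, 1 and 31 genes for Jak2V617F against WT, Asxl1-/-Jak2V617F against Jak2V617F, Asxl1-/- against WT, Asxl1-/-Jak2V617F against WT, Asxl1-/-Jak2V617F against Asxl1-/- and the interaction. In the same order, the shares of all tested genes were 24.4% higher, 19.4% lower, 10.9% higher, 8.76% higher, 2.12% higher and 17.5% lower. The cause of these changes was not tested. Depth was 16198011 counts or more per library and the lowest count of any of the 32 genes in a library was 689.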

Other observations

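A few genes of the pathway lists moved against the rest of their list, and are named here after their values were seen. Taf1b, a subunit of the SL1 promoter factor of RNA polymerase I, fell by 0.40 ± 0.12 on the log2 scale in Jak2V617F against WT (adjusted p = 0.0152) and rose by 0.66 ± 0.12 in Asxl1-/-Jak2V617F against Jak2V617F (adjusted p = 0.00102). Ttf1, the polymerase I termination factor, fell by 0.35 ± 0.12 in Jak2V617F against WT (adjusted p = 0.0327). Pih1d1, of the R2TP assembly complex, fell by 0.34 ± 0.11 there (adjusted p = 0.0217) and rose by 0.38 ± 0.11 in Asxl1-/-Jak2V617F against Jak2V617F (adjusted p = 0.0159). C1d, an exosome cofactor, rose in the latter comparison by 0.28 ± 0.10 (adjusted p = 0.0375). The 2 lower polymerase I genes were 1 in 15 of 19 alternatives, the higher exosome gene 0 in 13, and the snoRNP assembly gene 0 in 4 for each of its comparisons. Tert, the telomerase enzyme and a Myc target, fell by 1.15 ± 0.38 in Jak2V617F against WT (adjusted p = 0.0219), and no Myc target was lower there without Jak2V617F 1, Jak2V617F 3 or WT 1.

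Mdn1 parted from the other large subunit genes in Asxl1-/- against WT, where it fell by 0.42 ± 0.13 (adjusted p = 0.0363) while 22 of 42 rose. Its level in Asxl1-/-Jak2V617F was higher than in Asxl1-/- by 0.78 ± 0.13 (adjusted p = 0.00789), and the effect of Asxl1 loss did not differ between the backgrounds past the threshold (-0.06 ± 0.17, adjusted p = 0.796). The count of lower genes in this list, which is Mdn1 alone, was 0 without Asxl1-/- 1, Asxl1-/- 2, WT 2, WT 3 or Asxl1-/-Jak2V617F 2, and with a sex term.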
